A study of Mus musculus with 12 samples.

Results

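The transcripts described here are 10 genes used as markers of neutrophils in liver tissue, *S100a8*, *S100a9*, *Csf3r*, *Cxcr2*, *Il1r2*, *Mmp8*, *Mmp9*, *Retnlg*, *Ngp* and *Clec4d*. They were taken by gene symbol from a table of 45777 genes, in which each symbol had a row. Liver RNA was sequenced from 12 male C57BL/6 mice in 4 groups of 3. WT animals received vehicle (WT_veh) or APAP (WT_APAP), and mice labelled *Gna12* KO received vehicle (KO_veh) or APAP (KO_APAP). APAP is acetaminophen, which injures the liver at high dose, and it was injected i.p. once at 300 mg/kg after an overnight fast. All livers were taken after 6 h, from mice aged 10 to 12 weeks by the sample labels and 8 to 12 weeks by the study's methods. The KO mice carry a knockout of *Gna12* by their label, whose allele is not described in the sources used here, their WT controls were age-matched littermates, and whole liver was used, so every value is the sum over all cells of the tissue.

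Neutrophils are short-lived white blood cells that leave the marrow under the growth factor G-CSF and enter injured tissue along gradients of CXC chemokines. They carry proteases and other proteins in granules that are filled in a fixed order during maturation, and the cytosol of the mature cell is rich in calprotectin, the complex of S100A8 and S100A9. In the liver they lie in the sinusoids and gather where hepatocytes die, as in the pericentral zone after an APAP overdose. *S100a8*, *S100a9*, *Il1r2*, *Mmp9* and *Clec4d* are also transcribed by monocytes or macrophages, so no single member marks the cell type alone. In bulk tissue a lower level from fewer cells of a type cannot be told apart from a lower level per cell.

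The total count per liver ranged from 49737950 to 69566079. *Gna12* itself was not lower under the KO label: it had 1659 to 3550 counts in WT_veh, 1193 to 4373 in WT_APAP, 2472 to 4003 in KO_veh and 2489 to 3248 in KO_APAP, so the KO groups are named below by their label only. The study also reports PCR of *Gna12* on tail DNA and qRT-PCR on liver from WT and KO mice. It does not tie those mice to these libraries. A pair of libraries stood apart from their groups. WT_APAP replicate 1 had 238212 counts of the hemoglobin gene *Hba-a1* against 2551 to 7713 in the other livers, and WT_veh replicate 2 had 45608 counts of the acute-phase gene *Lcn2* against 104 and 133 in the other WT_veh livers. The members' comparisons that hold either liver are given with and without it.

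The members were low-abundance transcripts in most livers. Of the 120 values of 10 genes in 12 livers, 26 were 0, and only *S100a9* and *Csf3r*, 2 of the 10 members, were above 0 in every liver. The 10 members together had 118, 1035 and 66 counts in the WT_veh livers (replicates 1, 2 and 3). They had 7362, 1141 and 1611 in WT_APAP, 163, 82 and 96 in KO_veh, and 279, 89 and 749 in KO_APAP. All WT_APAP livers were above all livers of both KO-label groups, but WT_veh replicate 2, with 1035, came close to the lowest WT_APAP liver, and on the per-length scale its summed 42.1 TPM lay within the WT_APAP range of 29.0 to 246 TPM. The surface marker *Ly6g*, often used to sort mouse neutrophils, had at most 6 counts in any liver. The genes *Mpo*, *Ms4a3* and *Camp*, which are transcribed by immature cells in the marrow, were at 0 in all 12 livers.

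The sequences just upstream of the members are shown because the members rose and fell together across livers. RefSeq promoter windows on GRCm38.p6, the build also called mm10, were found for 9 of the 10 members, all except *Mmp9*. Each window holds 250 bases before and 50 bases after an annotated transcription start. The windows of the calprotectin genes, of the 3 members that passed the test over all livers and of *Mmp8* are printed 5′ to 3′ on the gene's strand, and capitals mark matches to the motifs searched. These were TTGCNNAA (the core recognised by C/EBP factors, which act in granulocyte development), GGAAGT (the core of PU.1 and other ETS factors) and TATAAA (the TATA box), on both strands, and no matches overlapped in the members.
S100a8, chr3:90668821-90669120, plus strand: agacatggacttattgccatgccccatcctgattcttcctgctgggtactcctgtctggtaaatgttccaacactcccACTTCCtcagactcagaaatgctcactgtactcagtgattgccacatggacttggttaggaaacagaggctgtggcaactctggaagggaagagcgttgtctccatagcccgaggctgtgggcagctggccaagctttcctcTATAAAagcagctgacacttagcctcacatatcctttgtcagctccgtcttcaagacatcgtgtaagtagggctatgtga
S100a9, chr3:90695672-90695971, minus strand: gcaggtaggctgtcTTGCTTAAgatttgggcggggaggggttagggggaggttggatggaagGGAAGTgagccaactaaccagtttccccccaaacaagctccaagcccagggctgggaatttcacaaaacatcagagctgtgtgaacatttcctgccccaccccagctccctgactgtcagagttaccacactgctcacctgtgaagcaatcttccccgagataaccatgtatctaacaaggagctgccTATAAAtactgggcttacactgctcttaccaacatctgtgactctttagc
Cxcr2, chr1:74153744-74154043, plus strand: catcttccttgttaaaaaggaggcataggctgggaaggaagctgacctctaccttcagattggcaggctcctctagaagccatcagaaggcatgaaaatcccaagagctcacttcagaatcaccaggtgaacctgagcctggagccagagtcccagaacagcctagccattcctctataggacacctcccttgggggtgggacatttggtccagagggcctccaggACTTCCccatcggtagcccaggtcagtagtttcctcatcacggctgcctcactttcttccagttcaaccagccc
Il1r2, chr1:40085843-40086142, plus strand: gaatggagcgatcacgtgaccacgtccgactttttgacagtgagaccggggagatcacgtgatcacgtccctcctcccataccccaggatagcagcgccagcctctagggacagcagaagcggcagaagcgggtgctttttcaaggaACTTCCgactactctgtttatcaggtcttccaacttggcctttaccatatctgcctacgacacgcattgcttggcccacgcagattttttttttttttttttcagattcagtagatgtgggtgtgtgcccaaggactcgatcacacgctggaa
Clec4d, chr6:123261857-123262156, plus strand: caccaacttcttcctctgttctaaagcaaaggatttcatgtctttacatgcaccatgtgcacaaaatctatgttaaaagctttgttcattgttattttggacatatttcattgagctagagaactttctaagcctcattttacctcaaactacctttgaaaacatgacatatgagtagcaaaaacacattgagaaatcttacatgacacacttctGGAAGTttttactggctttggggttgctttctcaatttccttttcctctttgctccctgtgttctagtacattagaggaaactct
Mmp8, chr9:7558179-7558478, plus strand: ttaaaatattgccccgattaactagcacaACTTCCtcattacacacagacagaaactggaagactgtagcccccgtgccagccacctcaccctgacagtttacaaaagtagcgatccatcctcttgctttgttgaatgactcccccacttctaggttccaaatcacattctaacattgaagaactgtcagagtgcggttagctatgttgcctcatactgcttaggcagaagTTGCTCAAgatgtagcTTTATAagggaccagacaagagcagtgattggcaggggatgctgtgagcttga
The *Il1r2* window lies inside the span that the gene table gives for the gene, at a start downstream of its first base. TTGCNNAA was present in 4 of the 9 windows (*S100a9*, *Mmp8*, *Ngp* and *Retnlg*) and in 10.8% of all 32851 promoter windows of that length. GGAAGT was present in 6 of the 9 and in 23.8% of all windows, and TATAAA in 3 of the 9 and in 13.6%. The *S100a8* match to TATAAA began 30 bases before the annotated start, whereas that of *S100a9* began at the start itself. These matches describe letters in a window and were not tested for binding.

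*S100a8* (gene ID 20201, chr3:90669071-90670034) and *S100a9* (gene ID 20202, chr3:90692630-90695721) encode the subunits of calprotectin, a protein that binds calcium and zinc and is released at sites of inflammation. *S100a8* had 0, 154 and 4 counts in WT_veh, 1598, 124 and 235 in WT_APAP, 13, 0 and 8 in KO_veh, and 38, 0 and 78 in KO_APAP. Every WT_APAP liver exceeded every KO_APAP liver, while WT_veh replicate 2 lay within the WT_APAP range. *S100a9* had 6, 351 and 4 counts in WT_veh, 3384, 257 and 579 in WT_APAP, 19, 10 and 27 in KO_veh, and 43, 18 and 170 in KO_APAP. The order of the livers was similar, and again the WT_veh group spanned low and high values. On the per-length TPM scale *S100a9* was the most abundant member in 9 of the livers, with 128 TPM in WT_APAP replicate 1 against 80.5 TPM for *S100a8* in the same liver. In the livers where both genes exceeded 100 counts, the TPM of *S100a9* was 1.55 to 1.85 times that of *S100a8*.

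4 members are receptors at the cell surface. *Csf3r* (gene ID 12986, chr4:126023441-126044975), the receptor for G-CSF, was the member found most evenly. It had 95, 197 and 47 counts in WT_veh, 445, 366 and 278 in WT_APAP, 107, 60 and 48 in KO_veh, and 116, 35 and 200 in KO_APAP. All WT_APAP livers were above all others, and the highest liver of each group was 1.40 to 2.31 times the middle one on the CPM scale. *Cxcr2* (gene ID 12765, chr1:74153994-74161246), the receptor through which neutrophils follow CXCL1 and CXCL2, had 0, 54 and 3 counts in WT_veh, 192, 56 and 102 in WT_APAP, 4, 0 and 0 in KO_veh, and 11, 16 and 42 in KO_APAP. Under the KO label the groups did not overlap. *Il1r2* (gene ID 16178, chr1:40084692-40125230), a decoy receptor that binds interleukin-1 without signalling, had 0, 32 and 6 counts in WT_veh, 401, 20 and 76 in WT_APAP, 0, 3 and 0 in KO_veh, and 8, 8 and 42 in KO_APAP. Its groups too did not overlap under the KO label, but WT_APAP replicate 2 was lower than WT_veh replicate 2. *Clec4d* (gene ID 17474, chr6:123262107-123275268), a C-type lectin of myeloid cells that pairs with the Fc receptor gamma chain, had 6, 40 and 0 counts in WT_veh, 227, 80 and 82 in WT_APAP, 12, 0 and 0 in KO_veh, and 23, 6 and 66 in KO_APAP. All WT_APAP livers were above all other livers for *Clec4d*.

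The other 4 members encode granule or secreted proteins. *Mmp8* (gene ID 17394, chr9:7558429-7568486), the neutrophil collagenase of the secondary granules, had 0, 81 and 2 counts in WT_veh, 257, 81 and 107 in WT_APAP, 2, 0 and 0 in KO_veh, and 6, 0 and 48 in KO_APAP. WT_veh replicate 2 equalled the lowest WT_APAP liver in counts and was above it on the CPM scale, at 1.70 against 1.08 CPM. *Mmp9* (gene ID 17395, chr2:164940326-164955850), the gelatinase of the tertiary granules, had 8, 28 and 0 counts in WT_veh, 162, 83 and 35 in WT_APAP, 4, 6 and 10 in KO_veh, and 22, 3 and 43 in KO_APAP. *Retnlg* (gene ID 245195, chr16:48872608-48874498), a secreted resistin-like protein of mouse neutrophils, had 3, 95 and 0 counts in WT_veh, 678, 74 and 108 in WT_APAP, 2, 0 and 3 in KO_veh, and 8, 0 and 60 in KO_APAP. *Retnlg* showed a single high liver in WT_veh and in WT_APAP. In WT_APAP the highest liver was 7.84 times the middle one on the CPM scale for *Retnlg* and 2.92 times for *Mmp9*, whose values were graded. *Ngp* (gene ID 18054, chr9:110419808-110423012), a secondary-granule protein made mainly in the marrow, had 0, 3 and 0 counts in WT_veh, 18, 0 and 9 in WT_APAP, 0, 3 and 0 in KO_veh, and 4, 3 and 0 in KO_APAP. *Ngp* was at or under the floor of 3 counts in 9 of 12 livers and never passed the filter on low counts. Its 27 counts in WT_APAP against 3 in WT_veh gave a ratio of 7.09 on the scale of library size, with a 95% interval of 2.18 to 36.5 for counting error only, and of the 27 counts 18 came from WT_APAP replicate 1.

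**Figure D1:**
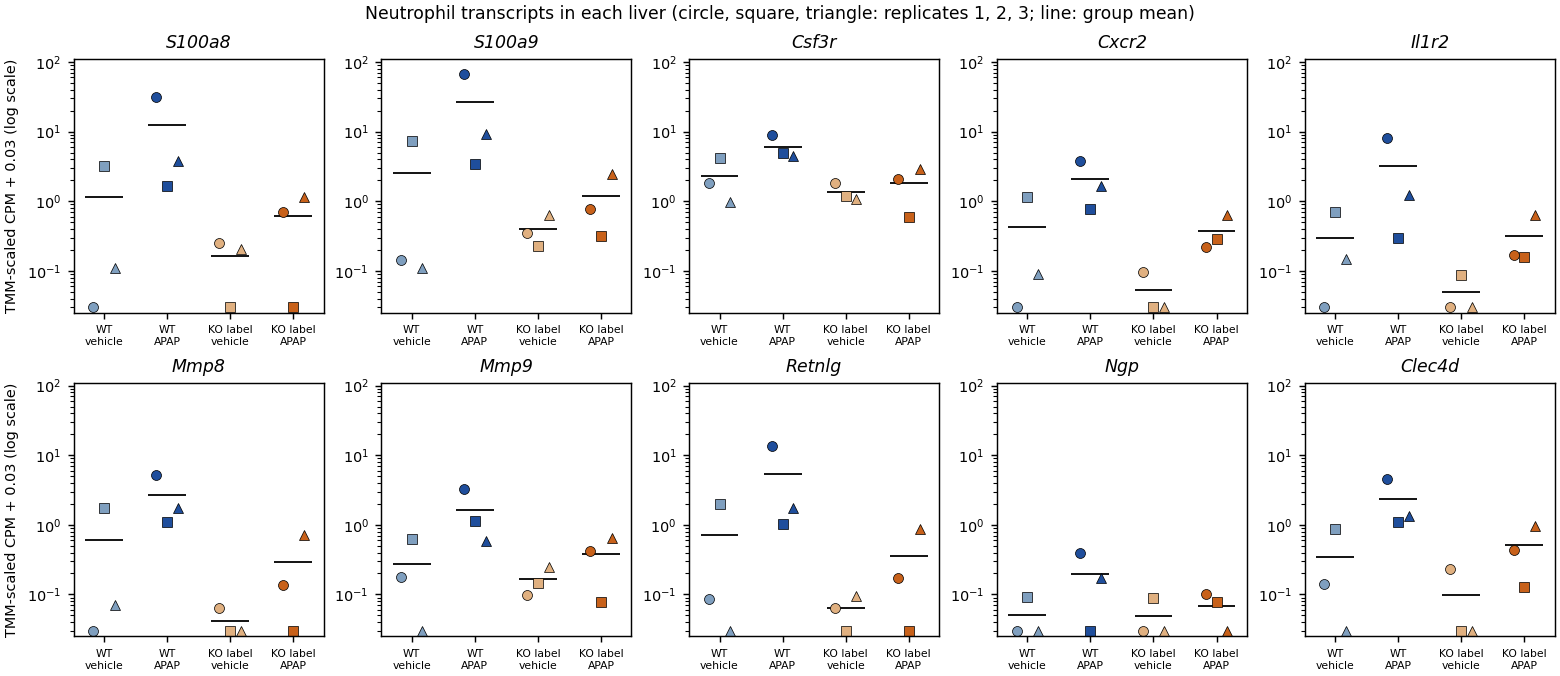
Level of each of the 10 neutrophil transcripts in each of the 12 livers, as TMM-scaled CPM (counts relative to library size) plus 0.03 on a log axis, by group, with symbols for replicates 1, 2 and 3 and a line at the group mean (n = 3). WT_APAP replicate 1 is the highest of all livers in every panel, WT_veh replicate 2 is the highest of its group in every panel, and points on the lower edge are at 0.

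The members varied together between livers of 1 group. WT_APAP replicate 1 was the highest of the 12 livers for 10 of 10 members, WT_veh replicate 2 the highest of its group for 10 of 10 on the CPM scale, and KO_APAP replicate 3 the highest of its group for 9 of 10. On a log2 CPM scale centred for each gene, the mean over the 10 members was 4.29 in WT_APAP replicate 1, 1.35 and 2.22 in the other WT_APAP livers and 1.90 in WT_veh replicate 2. It was −1.97 and −2.04 in the other WT_veh livers, between −2.05 and −1.36 in KO_veh, and −0.05, −1.63 and 1.06 in KO_APAP. Over the 12 livers, Pearson's r between pairs of members had a median of 0.88 (45 pairs), and it had a median of 0.83 over the 11 livers without WT_APAP replicate 1. The closest pair was *S100a9* and *Retnlg* (r = 0.97), and the loosest was *Csf3r* and *Ngp* (r = 0.49). These values describe livers that share library, depth and group, and the groups themselves add to them.

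**Figure D2:**
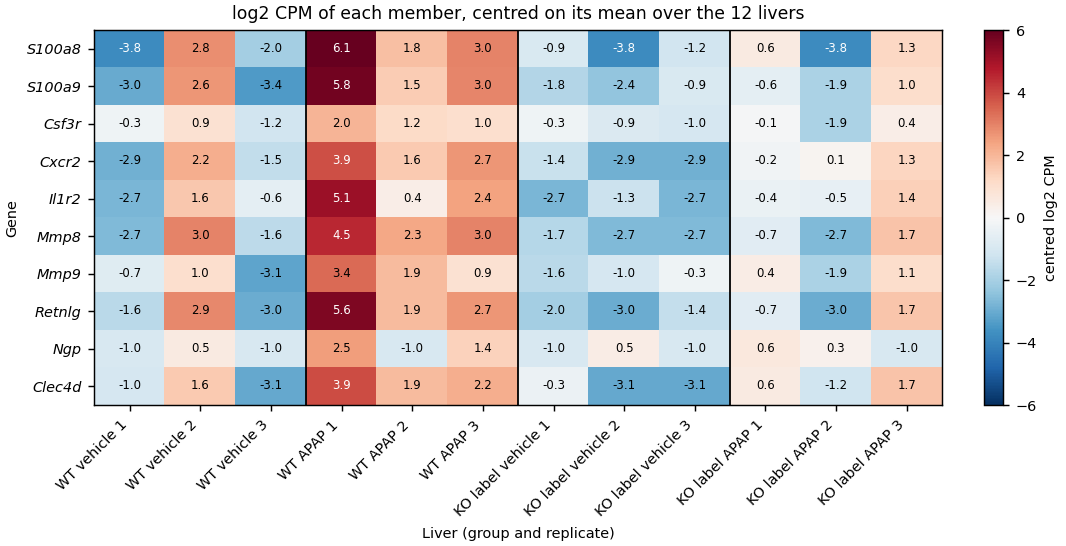
Log2 CPM of each member in each liver, centred on the gene's mean over the 12 livers, with vertical lines between groups and the centred value printed in each cell. The columns of WT_APAP and of WT_veh replicate 2 are mostly positive, and the column of KO_APAP replicate 3 is higher than those of the other KO_APAP livers.

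The make-up of the set shifted with its total. The calprotectin genes took 84.5% of the members' summed TPM in WT_APAP replicate 1, 76.9% in WT_veh replicate 2 and 21.4% in WT_veh replicate 1, the lowest share. In that last liver *Csf3r* took 57.6% of a summed level of 1.53 TPM, against 1.05% of 246 TPM in WT_APAP replicate 1. At summed levels near 1 TPM the members were counted in single or double digits, so these shares carry large counting error.

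Outside the members, the 10 genes whose log2 CPM most resembled the members' mean profile, among 12153 genes with a mean log2 CPM of at least 0, included *Ccl6*, *Lilr4b*, *Lilrb4a*, *Tlr13*, *Efna1*, *Cyyr1*, *Crem*, *Casp4* and *Gjb2*. Pearson's r over 12 livers ran from 0.886 for *Gjb2*, a connexin of hepatocytes, to 0.94 for *Ccl6*, a CC chemokine of myeloid cells. Without WT_APAP replicate 1, r over 11 livers ran from 0.812 to 0.898. *Ccl6* had 283, 533 and 253 counts in WT_veh, 1745, 953 and 957 in WT_APAP, 396, 272 and 320 in KO_veh, and 747, 539 and 996 in KO_APAP. Its WT_APAP livers were above all vehicle livers, and KO_APAP replicate 3 lay within the WT_APAP range. Since these genes were the top of a ranking over all genes, their r values are descriptions only.

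The response of the members to APAP in WT mice was the first comparison. The members had higher means in WT_APAP, but none passed the test. *S100a9* was 26.6 ± 35.3 CPM in WT_APAP against 2.52 ± 4.19 CPM in WT_veh (SD, n = 3 each), a log2 fold change of 3.43 ± 1.67 (SE), and *Csf3r* was 6.04 ± 2.43 against 2.28 ± 1.65 CPM, a log2 fold change of 1.42 ± 0.55. By edgeR's quasi-likelihood test with Benjamini-Hochberg adjustment, 0 of the 9 members tested were called at 0.05, where 2.05% of the 15693 genes tested were. The adjusted p-values ran from 0.2295 to 0.4466, and 4 members (*Csf3r*, *Il1r2*, *Mmp9* and *Clec4d*) had an unadjusted p under 0.05, as did 2817 genes of the 15693. DESeq2's Wald test and limma also called 0 members. The livers did not overlap for 2 of 10 members, *Csf3r* and *Clec4d*, where 10.8% of all genes had every WT_APAP liver above every WT_veh liver.

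The size of the difference in WT mice depended on 1 liver in each group. Over the 10 members, fitted without a filter, the median log2 fold change was 2.86, against 0.10 over all genes. Without WT_APAP replicate 1 the 9 tested members had a median of 1.33, from 0.99 for *Retnlg* to 1.91 for *Clec4d*, and 0 had an unadjusted p under 0.05. In that fit 0 members were called, where 1.75% of all genes were. Without WT_veh replicate 2 the median was 6.04, from 2.15 for *Csf3r* to 8.24 for *S100a8*. All 9 then had an unadjusted p under 0.05, but 0 were called, where 1.43% of all genes were. The lowest adjusted p was 0.05519 for *Mmp8* by edgeR's test. The share of all genes under the unadjusted limit was not counted in either fit, so the members' counts at that limit have no background. Without both livers, a setting added after the values were seen, 4 members were called: *S100a9* (log2 fold change 6.00, adjusted p = 0.02023 by edgeR), *Mmp8* (6.02, 0.03254), *S100a8* (6.04, 0.03857) and *Retnlg* (5.45, 0.04224). That setting compares a pair of livers with a pair of livers, and 2.74% of the 15903 genes tested were called higher in it. WT_veh replicate 2 also stood out in genes that are not members: the liver-made acute-phase gene *Hp* had 539902 counts there against 131055 to 263194 elsewhere, and the chemokine gene *Cxcl1* had 12809 against 120 to 171 in the other WT_veh livers. The part of these in the result was not tested.

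The study's question about *Gna12* after APAP rests on WT_APAP against KO_APAP. All 10 members had higher means in WT_APAP. For *S100a8* the values were 12.4 ± 16.8 CPM against 0.592 ± 0.559 CPM (SD, n = 3 each), for *Cxcr2* 2.06 ± 1.58 against 0.349 ± 0.218, and for *Mmp8* 2.63 ± 2.17 against 0.263 ± 0.368. The log2 fold changes were 4.40 ± 1.38 (SE) for *S100a8*, 2.56 ± 0.69 for *Cxcr2* and 3.30 ± 1.14 for *Mmp8*, and they ran from 1.75 for *Csf3r* to 4.54 for *S100a9* over the 9 members tested. By edgeR's test 0 of these 9 were called, each with an adjusted p of 0.9579, and 0.0309% of all 16174 genes tested were called. DESeq2's Wald test and limma also called 0 members. Without a filter on low counts, 9 of the 10 members, all except *Ngp*, had an unadjusted p under 0.05 by edgeR's test, and 2.15% of all genes were higher in WT at that limit. The livers did not overlap for 7 of the 10 members (*S100a8*, *S100a9*, *Csf3r*, *Cxcr2*, *Mmp8*, *Retnlg* and *Clec4d*), where 3.2% of all genes had every WT_APAP liver above every KO_APAP liver. The members share livers and moved together, so these counts are not those of independent genes.

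Without WT_APAP replicate 1 the difference between the APAP groups was smaller and kept its direction in all 9 members tested. The median log2 fold change went from 3.30 to 1.74, with 1.25 for *Mmp9* and 2.44 for *S100a9* at the ends. By edgeR's test 3 members then had an unadjusted p under 0.05 (*S100a9*, *Cxcr2* and *Csf3r*), and each adjusted p was 0.9997. None of the members was called, where 0.0422% of all genes were. The share of all genes under the unadjusted limit was not counted in this fit, so the 3 members have no background at that limit. KO_APAP itself spanned a wide range, from 89 summed member counts in replicate 2 to 749 in replicate 3, and the latter was nearest to the WT_APAP livers.

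Under the KO label, all 6 members tested had a positive log2 fold change with APAP, and *Cxcr2* was the only one called. *Cxcr2* was 0.349 ± 0.218 CPM in KO_APAP against 0.0224 ± 0.0388 CPM in KO_veh (SD, n = 3 each), with a log2 fold change of 3.71 ± 0.95 (SE, adjusted p = 0.02654 by edgeR's test). At most 4 counts were found in any KO_veh liver. In the same comparison 22.6% of the 15665 genes tested were called, and 1 of 6 members is close to that share. The call was lost without KO_veh replicate 2 (adjusted p = 0.09045 by edgeR), KO_veh replicate 3 (0.08943) or KO_APAP replicate 3 (0.1017), and also with all 12 livers in 1 fit (0.144). *S100a9* had a log2 fold change of 1.66 ± 0.76 (adjusted p = 0.1494 by edgeR) and *Csf3r* of 0.44 ± 0.52 (0.5815). The values were 2.69 ± 1.17 for *Clec4d* (adjusted p = 0.1339 by edgeR), 2.15 ± 1.27 for *S100a8* (0.2583) and 1.40 ± 0.83 for *Mmp9* (0.2556). *Il1r2*, *Mmp8*, *Retnlg* and *Ngp* did not pass the filter on low counts. For *Il1r2*, 58 counts in KO_APAP against 3 in KO_veh gave a ratio of 17.3 on the scale of library size, with a 95% interval of 5.64 to 86.5, and for *Mmp8*, 54 against 2 gave 24.2 (6.38 to 205), both covering counting error only. *Cxcr2* and *Il1r2* were the 2 of 10 members whose groups did not overlap, where 16.2% of all genes had every KO_APAP liver above every KO_veh liver.

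With vehicle alone, the WT and KO-label livers overlapped for all 10 members, so 0 of 10 were apart, where 5.09% of all genes had every WT_veh liver above every KO_veh liver. Only *S100a9* and *Csf3r* passed the filter on low counts. By edgeR's test *S100a9* had a log2 fold change of 2.77 ± 1.50 (SE, adjusted p = 0.7312) and *Csf3r* of 0.76 ± 0.52 (adjusted p = 0.7666), and 0 of the 2 were called or had an unadjusted p under 0.05, where 0.0262% of all 15262 genes were called. DESeq2 and limma called 0 as well. Without a filter on low counts, the median log2 fold change over the 10 members was 2.89, against −0.02 over all genes. After APAP the same median was 2.92. In that vehicle fit *Mmp8* and *Retnlg* had an unadjusted p under 0.05 (adjusted p = 0.7413 for each by edgeR's test). WT_veh replicate 2 held 81 of the 83 WT_veh counts of *Mmp8* and 95 of the 98 of *Retnlg*. Without WT_veh replicate 2 the *S100a9* value was −1.91 and that of *Csf3r* 0.01, so the higher WT mean for *S100a9* came from that liver and turned to the other direction without it.

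Over both genotype labels, with 6 livers given APAP against 6 given vehicle and the label as a covariate, 3 receptor genes rose with APAP. *Il1r2* was 1.72 ± 3.09 CPM after APAP and 0.142 ± 0.264 CPM with vehicle (SD, n = 6 each), with a log2 fold change of 3.63 ± 1.04 (SE, adjusted p = 0.02138 by edgeR). *Cxcr2* changed by 2.79 ± 0.90 (adjusted p = 0.0381 by edgeR) and *Clec4d* by 2.79 ± 0.91 (0.03969). The other 6 tested members had log2 fold changes from 0.93 for *Csf3r* to 3.07 for *Retnlg* and adjusted p-values from 0.06639 to 0.1344 by edgeR's test, and *Ngp* was not tested. The 3 of 9 members called stand beside 25.4% of all 16509 genes tested, so the share of members was near that of all genes. The median log2 fold change over the 10 members without a filter was 2.73, against 0.08 over all genes. No member had all 6 APAP livers above all 6 vehicle livers.

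These calls moved with single livers. Without WT_APAP replicate 1, 0 of the 9 members were called, where 28.3% of all genes were, with *Cxcr2* at a log2 fold change of 2.39 (adjusted p = 0.09011 by edgeR), *Il1r2* at 2.36 (0.09625) and *Clec4d* at 2.28 (0.092). Without WT_veh replicate 2, 6 were called, *Cxcr2*, *Il1r2*, *Mmp8*, *Clec4d*, *S100a8* and *Retnlg*, with *Mmp8* at 5.88 (adjusted p = 0.004726 by edgeR), where 27.6% of all genes were called. Without both, 7 were called, *S100a9* being the addition (3.16, adjusted p = 0.01806 by edgeR), where 33.3% of all genes were called. With each of the 12 livers left out in turn, *Il1r2* was called in 10 fits, lost without WT_APAP replicate 1 or WT_veh replicate 3, *Clec4d* in 4 fits and *Cxcr2* in 3 fits. *Clec4d* was called without WT_veh replicate 2, WT_APAP replicate 2, KO_veh replicate 1 or KO_APAP replicate 2, and over the 12 fits its adjusted p ran from 0.01613 to 0.1005 by edgeR's test. *Cxcr2* was called without WT_veh replicate 2, WT_APAP replicate 2 or KO_APAP replicate 1, with an adjusted p from 0.001789 to 0.09011 over the 12 fits by edgeR's test. Without WT_veh replicate 3, with 66 summed member counts the lowest of the 12 livers, 0 members were called, the adjusted p being 0.05566 for *Il1r2*, 0.06019 for *Clec4d* and 0.07669 for *Cxcr2* by edgeR's test.

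**Figure D3:**
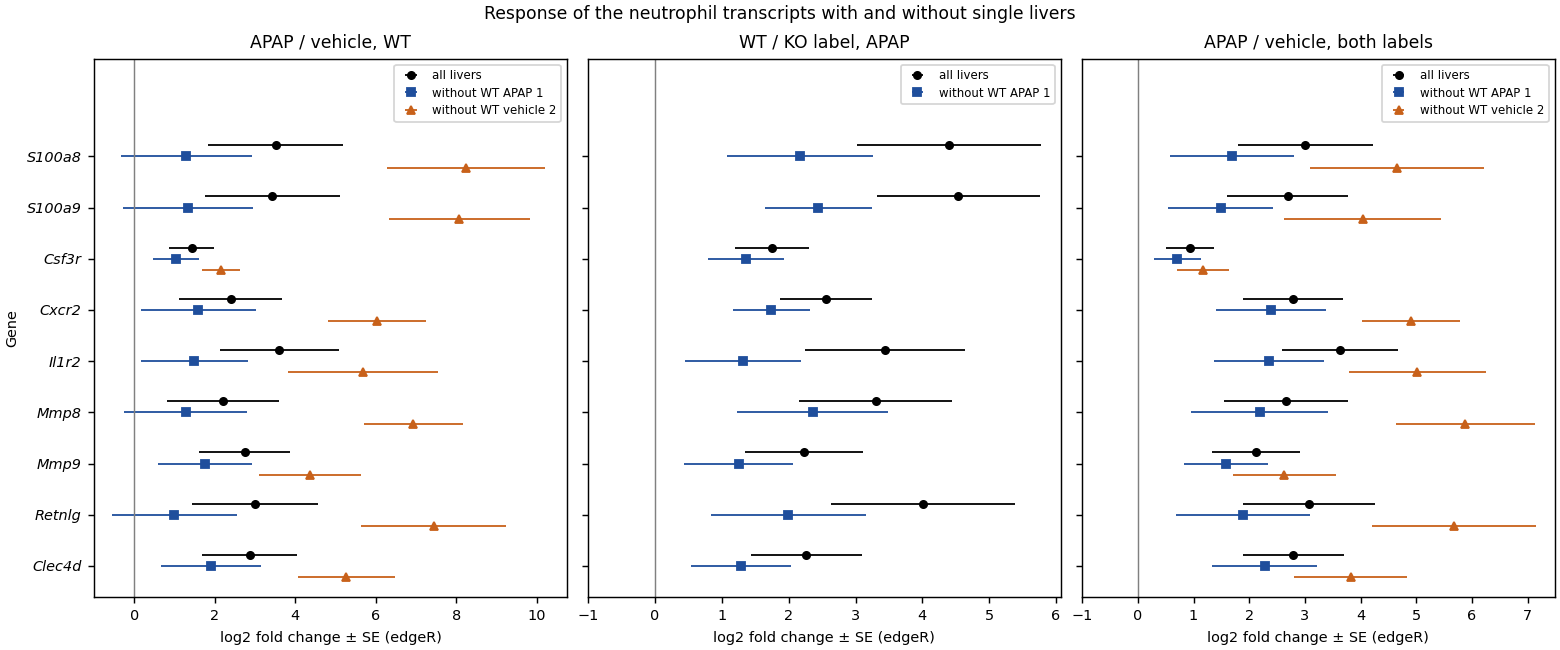
Log2 fold change with its SE, from edgeR, of the 9 members tested, for APAP against vehicle in WT livers, for WT against the KO label after APAP, and for APAP against vehicle over both labels. Black circles use all livers, blue squares leave out WT_APAP replicate 1 and orange triangles, in the first and the third panel, leave out WT_veh replicate 2. In the WT comparison the median is 1.33 without the first of these and 6.04 without the second.

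Whether the response to APAP differed between the genotype labels was tested by the interaction over all 12 livers. By edgeR's test 0 of the 9 members were called, 0 had an unadjusted p under 0.05, and 0.0% of all 16509 genes were called, with 848 of them at an unadjusted p under 0.05. DESeq2's Wald test and limma also called 0 members. The interaction, taken as the WT response minus the KO-label response on the log2 scale, was 1.74 ± 2.09 (SE) for *S100a9*, 1.35 ± 2.48 for *S100a8* and −1.33 ± 1.95 for *Cxcr2*, with 5 of 9 members above 0. Without WT_APAP replicate 1 its median was −0.87, and without WT_veh replicate 2 it was 2.73. A larger response in WT mice was therefore not shown by the test, and SEs of 0.83 to 2.70 left wide room for a difference in either direction.

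The pathways around the members gave values for their ligands, partners and inhibitors. The counts of genes called in these lists over both labels stand beside the 25.4% of all genes called in that comparison, and several lists are at or below that share. In the lists below, a gene is said to rise or fall where it was called. Among 6 genes for CXCR2 ligands, *Cxcl5* and *Cxcl15* were at 0 in all livers, 3 were tested over both labels and 2 rose. *Cxcl2* had 0, 22 and 0 counts in WT_veh, 234, 118 and 104 in WT_APAP, 3, 0 and 0 in KO_veh, and 121, 39 and 197 in KO_APAP, a log2 fold change of 4.89 ± 0.90 (SE, adjusted p = 0.0018 by edgeR). Its APAP livers were above all vehicle livers under both labels. *Ppbp*, a chemokine gene of platelets, rose from 0 counts in all 6 vehicle livers to 268, 24 and 12 in WT_APAP and 0, 13 and 24 in KO_APAP (adjusted p = 0.01588 by edgeR). *Cxcl1* had 171, 12809 and 120 counts in WT_veh, 2745, 1926 and 5396 in WT_APAP, 378, 162 and 138 in KO_veh, and 1950, 5571 and 7256 in KO_APAP. *Cxcl1* and *Cxcl2* both rose under the KO label, with log2 fold changes of 4.17 ± 0.48 and 6.46 ± 0.94 (adjusted p = 0.001345 and 0.003314 by edgeR's test). After APAP, WT and KO-label livers gave log2 differences of −0.43 ± 0.50 for *Cxcl1* and 0.52 ± 0.62 for *Cxcl2* (WT over KO label, adjusted p = 0.9599 for both by edgeR), neither of which passed the test.

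Of the 5 genes around interleukin-1, *Il1b* rose (2.29 ± 0.79, adjusted p = 0.0491 by edgeR) and the coreceptor gene *Il1rap* fell by 0.37 on the log2 scale (0.0478) over both labels. Each was close to the threshold, and with each of the 12 livers left out in turn *Il1b* was called in 3 fits and *Il1rap* in 2. *Il1b* was at 1.44 without WT_APAP replicate 1 (adjusted p = 0.07688 by edgeR) and at 2.09 without WT_veh replicate 2 (0.09993). *Il1b* had 7, 25 and 45 counts in WT_veh, 672, 265 and 39 in WT_APAP, 24, 11 and 16 in KO_veh, and 37, 14 and 67 in KO_APAP. Its APAP and vehicle groups thus overlapped under both labels. With APAP it changed by 3.50 ± 1.10 in WT (adjusted p = 0.1525 by edgeR) and 0.91 ± 0.55 under the KO label (0.2629). After APAP, WT over the KO label was 3.27 ± 1.02 (adjusted p = 0.9579 by edgeR). Of the 7 genes listed around the G-CSF axis, *Csf1* (1.16 ± 0.26, adjusted p = 0.006648 by edgeR) and *Cebpb* (0.90 ± 0.22, 0.00883) rose among 5 tested. *Csf1* encodes the macrophage growth factor M-CSF and not G-CSF. *Csf3*, which encodes G-CSF, the ligand of the *Csf3r* receptor, had 0 counts in all vehicle livers, 13, 0 and 5 in WT_APAP and 8, 0 and 17 in KO_APAP. It passed the filter only for WT against the KO label after APAP, at −0.25 ± 1.31 (SE, adjusted p = 0.9928 by edgeR). Of the 5 genes that carry the CLEC4D signal, *Bcl10* rose (0.74 ± 0.15, adjusted p = 0.003159 by edgeR) and *Fcer1g* was at 0.50 ± 0.26 (0.1814). Of the 6 calprotectin receptor genes, *Ly96*, the partner of TLR4, rose (1.22 ± 0.31, adjusted p = 0.01159 by edgeR), and *Tlr4* was at 0.82 ± 0.29 (0.05383). Of the 6 inhibitors of matrix metalloproteinases, *Timp1* (4.26 ± 0.73, adjusted p = 0.001218 by edgeR) and *Timp3* (0.73 ± 0.19, 0.01232) rose among 4 tested. Of the 9 adhesion genes, *Sele*, which encodes E-selectin of activated endothelium (4.77 ± 0.94, adjusted p = 0.002747 by edgeR), and *Pecam1* (0.41 ± 0.10, 0.01212) rose. Of the genes named here as called over both labels, *Cxcl2*, *Ppbp*, *Csf1*, *Cebpb*, *Bcl10*, *Ly96*, *Timp1*, *Timp3*, *Sele* and *Pecam1* were called in all 12 fits with 1 liver left out. With WT_APAP replicate 1 left out, the adjusted p was 0.01558 for *Ppbp* and 0.005771 for *Sele* by edgeR.

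Other transcripts of neutrophils fell into lists by stage of maturation. Of 5 genes listed for the primary-granule stage, only *Prtn3* passed the filter over both labels, at −0.53 ± 1.06 (adjusted p = 0.7553 by edgeR). *Elane* had at most 14 counts in a liver. Of 8 genes of secondary and tertiary granules, 6 were tested over both labels and 0 were called. Under the KO label 5 were tested, where 22.6% of all genes were called. There *Lcn2* rose (3.56 ± 0.95, adjusted p = 0.03045 by edgeR) and *Cybb* fell by 0.93 on the log2 scale (0.04354). *Lcn2*, which hepatocytes also make, had 104, 45608 and 133 counts in WT_veh, 2200, 1602 and 9259 in WT_APAP, 824, 199 and 113 in KO_veh, and 1856, 1294 and 13099 in KO_APAP, and its values followed the same livers as the members within WT_veh and KO_APAP. Of 19 genes of mature neutrophils, 18 were in the table and 11 were tested over both labels, and 4 rose (*Trem1*, *Clec4e*, *Hdc* and *Slfn4*) and *G0s2* fell, beside the 25.4% of all genes called. With 1 liver left out in turn *Slfn4* was called in 5 of 12 fits (adjusted p = 0.06336 by edgeR without WT_APAP replicate 1), and the other 4 in all 12. *Trem1*, an amplifying receptor of myeloid cells, had 2, 0 and 0 counts in WT_veh, 120, 19 and 17 in WT_APAP, 0 in each KO_veh liver, and 7, 8 and 20 in KO_APAP (adjusted p = 0.000772 by edgeR). *Clec4e*, the partner of *Clec4d*, had 0, 6 and 0, then 63, 53 and 29, then 0, 0 and 0, then 4, 4 and 12 counts in the same order of groups, a log2 fold change of 4.42 ± 0.81 (adjusted p = 0.001754 by edgeR). *G0s2*, which is also a gene of fat metabolism in hepatocytes, fell by 1.54 on the log2 scale (adjusted p = 0.0105 by edgeR). *Trem1* and *Clec4e* had 0 and 6 counts in WT_veh replicate 2, the vehicle liver in which all members except *Ngp* were highest.

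Markers of other blood cells were high in the liver with the most neutrophil transcripts. In WT_APAP replicate 1 the 7 red-cell markers summed to 28806 TPM, against 657 to 1560 TPM in the other 11 livers, and all 7 were detected. Most of their counts in that liver were of globin genes, and *Hbb-bs* had 303721 counts there and 4231 to 11738 elsewhere. The other red-cell markers were not raised to the same extent. *Alas2* had 8057 counts there against 3099 to 6312 elsewhere, and *Slc4a1* had 17, below the 20 in KO_APAP replicate 2. The 6 platelet markers summed to 35.7 TPM in that liver, with *Pf4* at 325 counts against 8 to 35 in the others. They summed to 8.23 to 11.2 TPM in WT_veh, 17.0 to 35.7 in WT_APAP, 9.40 to 11.4 in KO_veh and 14.3 to 18.0 in KO_APAP. Every APAP liver was thus above every vehicle liver. Over both labels 3 of the 4 platelet markers tested were called higher by edgeR's test, beside 25.4% of all genes called in either direction. The part of the red-cell and platelet markers in the members' levels was not tested. In WT_APAP replicates 2 and 3 *Hba-a1* had 5427 and 3446 counts, within the range of the vehicle livers, and 1141 and 1611 summed member counts. WT_veh replicate 2 had 2933 counts of *Hba-a1* and 0 of *Ppbp*, so the red-cell and platelet markers were not raised in that liver.

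Markers of Kupffer cells, monocytes and lymphocytes were also read in each liver, beside the members' summed level of 0.924 to 246 TPM. The 7 Kupffer-cell markers summed to 100.2 to 166 TPM in WT_veh, 99.8 to 228 in WT_APAP, 120 to 260 in KO_veh and 142 to 196 in KO_APAP, and 0 of 7 were called over both labels by edgeR's test. *Clec4f*, the defining gene, had 1580 counts in WT_veh replicate 2, the lowest of the 12 livers, and 3794 in WT_APAP replicate 1. The monocyte genes *Ly6c2* and *Ccr2* had 8 to 34 and 7 to 102 counts, and WT_APAP replicate 1 had 21 and 30. Of the other monocyte markers, *F13a1* and *Chil3* had 45 and 39 counts in WT_veh replicate 2 against 0 to 4 in the other WT_veh livers. *Chil3* is also in the list of secondary- and tertiary-granule genes above. *Plac8* had 95, 212 and 125 counts in WT_veh, 769, 323 and 326 in WT_APAP, 228, 184 and 261 in KO_veh, and 234, 264 and 464 in KO_APAP, so these 3 were highest in the same WT_veh liver as the members. *Ccr2* was also highest there, with 26, 51 and 7 counts in WT_veh. *Ly6c2* (8, 10 and 13) and *Ms4a4c* (0, 0 and 2) were highest in WT_veh replicate 3. *Fn1*, which hepatocytes also make, took 98.0 to 99.8% of the counts of the 7 monocyte markers. Without it the other 6 summed to 3.18, 7.22 and 4.41 TPM in WT_veh, 21.1, 13.2 and 11.03 in WT_APAP, 7.89, 5.92 and 12.2 in KO_veh, and 7.87, 10.2 and 14.7 in KO_APAP. That sum was thus highest in WT_APAP replicate 1 and, within WT_veh, in replicate 2, and 0 of the 7 markers were called over both labels by edgeR's test. Most of its counts there came from *Plac8*, with 769 of 910 in WT_APAP replicate 1 and 212 of 357 in WT_veh replicate 2. *Ly6c2*, *Ccr2*, *F13a1* and *Chil3* were instead highest in WT_APAP replicate 2, with 34, 102, 46 and 57 counts. The part of the sum in the members' levels was not tested. The 7 lymphocyte markers summed to at most 4.62 TPM in any liver, with *Cd79a* at 95 counts in WT_APAP replicate 1 against 6 to 58 elsewhere and *Cd3e* at 7 to 33 in all 12 livers. Of the 5 mast-cell and eosinophil markers, *Mcpt4* and *Epx* were at 0 in all livers and the sum was at most 0.19 TPM. Across livers the members' mean profile had r = 0.55 with *Hba-a1* (12 livers), and −0.29 without WT_APAP replicate 1 (11 livers). The same values were 0.74 and 0.88 for *Lcn2*, 0.83 and 0.81 for *Cxcl2*, 0.81 and 0.74 for *Pf4*, and −0.06 and −0.43 for *Clec4f*. The relation with *Hba-a1* thus rested on that liver, and those with *Lcn2* and *Cxcl2* did not.

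**Figure D4:**
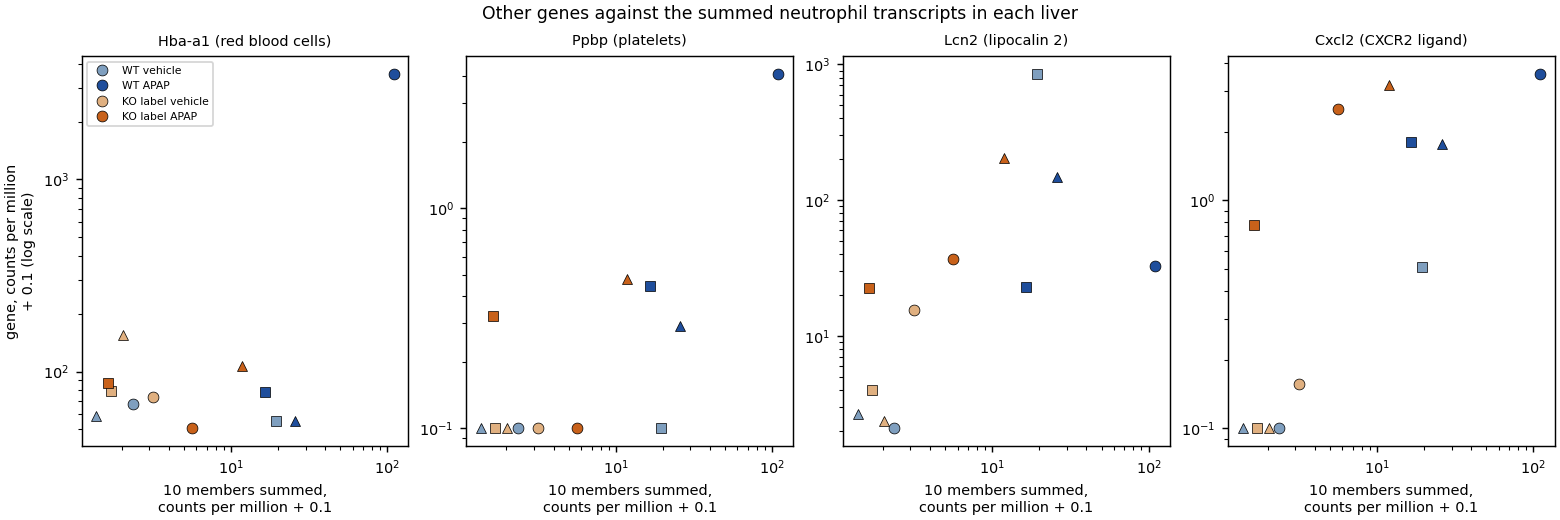
CPM, here relative to the library total, of *Hba-a1* (red cells), *Ppbp* (platelets), *Lcn2* and *Cxcl2* against the summed CPM of the 10 members, each plus 0.1, in the 12 livers on log axes, with colour for group and circle, square and triangle for replicates 1, 2 and 3. WT_APAP replicate 1 is far from the other livers in the *Hba-a1* panel, whereas WT_veh replicate 2, the pale blue square, is the highest point in the *Lcn2* panel.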

How the data were processed

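RNA-seq of poly-A RNA (TruSeq stranded kit, paired-end reads, NovaSeq) from 12 mouse livers was used, grouped by the sample labels. Per gene on mm10, the authors deposited raw read counts, TPM (length-scaled) and FPKM, the last not used here. The submitters' processing notes list Trimmomatic 0.38, HISAT2 2.1.0, Bowtie2 2.3.4.1 and StringTie 2.1.3b without their roles. Among low values, counts of 2 outnumbered counts of 1, so both reads of a pair may have been counted, which would make counting intervals too narrow.

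Counts were scaled by TMM, filtered by filterByExpr and tested with edgeR 4.0.16 (quasi-likelihood, R 4.3.3), calling genes at a Benjamini-Hochberg adjusted p under 0.05 among all those tested. Each comparison used its own 6 livers, and the treatment over both labels and the interaction used all 12. The study used a t-test on TPM, so limma 3.58.1 on quantile-normalized log2(TPM + 1) and log2(TPM + 0.1) was an alternative, as were DESeq2 1.42.0, other filters, the replicate number as a block and each liver left out.

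Members and lists were chosen with earlier results of these data known. All 10 members are named. Of each pathway list at most 3 genes with the smallest unadjusted p over all livers are named, of other cell types the first 2 genes, and the 10 genes most like the members' profile, of which 1 is not reported here. *Lcn2*, *Elane*, *Mpo*, *Ms4a3*, *Camp*, *Ly6g*, *Csf3*, *Cxcl5*, *Cxcl15*, *Hdc*, *Slfn4*, *F13a1*, *Chil3*, *Plac8*, *Fn1*, *Alas2* and *Slc4a1* were named after their values were seen. Coordinates and promoters come from RefSeq, GRCm38.p6. Intervals and the floor of 3 counts cover counting error only.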

Additional observations from a re-analysis of the deposited data

How the results depend on the processing

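The members' counts of calls moved most in the comparison of APAP with vehicle over both labels. Against 3 members called, the newer quasi-likelihood method of edgeR gave 7, requiring 10 or more counts in each liver gave 0, limma on log2(TPM + 1) gave 0, and the fits without 1 liver gave 0 to 6. Leaving out WT_APAP replicate 1 and WT_veh replicate 2 together, chosen after the values were seen, gave 7 there and 4 in the WT comparison, where 0 were called. Under the KO label, against 1 call, the 10-count filter, limma on log2(TPM + 1) and all 12 livers in 1 fit each gave 0, and the fits without 1 liver gave 0 to 2. The cause was not tested, except that the 10-count filter tests fewer members. Beside these counts, 25.4% of all genes were called over both labels and 22.6% under the KO label in the main fits. That share is not given here for most of the other settings. Their counts of members called are therefore not a result about the members. The labels give the groups the same replicate numbers, but nothing ties equal numbers to a litter or day and same-numbered livers did not deviate together (r from −0.26 to 0.11). With the replicate number as a block, 0 members were called over both labels and 0 under the KO label.

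The sign of the interaction depended on the setting for 7 members. In the fits without 1 liver its log2 value ran from −0.87 to 6.09 for *S100a8*, −0.36 to 6.40 for *S100a9*, −4.96 to 2.32 for *Cxcr2*, −3.51 to 1.90 for *Il1r2*, −4.76 to 2.73 for *Mmp8*, −2.33 to 4.12 for *Retnlg* and −4.93 to 2.57 for *Clec4d*. By limma it was 0.52 and 0.97 for *Cxcr2*, 1.02 and 1.30 for *Il1r2*, 0.72 and 1.53 for *Mmp8*, and 1.53 and 2.33 for *Retnlg*, on log2(TPM + 1) and log2(TPM + 0.1), against negative main values. With the replicate block it was −0.55 for *Clec4d*, and without both livers 1.52 for *Cxcr2*, 1.81 for *Mmp8* and 2.14 for *Retnlg*. In the fits without 1 liver, *Csf3r* under the KO label ran from −0.05 to 0.86 and *S100a9* with vehicle from −1.91 to 3.34. Of the members' other values under the alternatives, 654 kept their direction and their side of the threshold, 33 lost and 20 gained significance. Low counts limit the precision: below a few counts per liver a difference was not detectable.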
